A study of Mus musculus with 6 samples.

Results

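The lipid synthesis, storage and lipolysis genes are 44 genes picked by symbol, not by their values, from the 26264 gene symbols that each library lists, and all 44 were found. The 44 genes were chosen with earlier results of these data known. By textbook role, 7 of them act in fatty acid synthesis, 6 in desaturation and elongation, 4 in glycerol supply, 6 in triglyceride assembly, 7 in fatty acid uptake and binding, 8 at the lipid droplet and 6 in lipolysis. They were measured by bulk RNA sequencing in 6 libraries, 1 for each combination of untreated or FGF8-pretreated cells with 3 time points. The series addresses what a fibroblast growth factor given to preadipocytes leaves behind in the adipocytes formed later. All libraries came from 1 line of Bl6N wild-type mouse brown preadipocytes, taken from the stromal vascular fraction and immortalized with the SV40 large T antigen, so neither donor animals nor independent lines are represented. FGF8 cells had received 5.5 nM FGF8 for 48 h, and the controls are untreated in the labels and vehicle-treated in the methods. The time points keep their label names. D0 cells were harvested straight after the pretreatment, whereas D3 and D7 cells had gone on to adipogenic differentiation without further FGF8, and the last time point is counted in the paper as day 9, the sum of 2 days of induction and 7 days on differentiation medium. The growth protocol filed with the samples speaks of primary white preadipocytes, against the sample titles, cell type and cell line fields, which are followed here.

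Values are normalized counts, the deposited count of a gene divided by a median-of-ratios size factor of its library. A fold change is the ratio of normalized counts after adding 1 to each, on the log2 scale, and compares FGF8 with untreated cells of the same day unless another pair is named. With 1 library per condition, no p-value between 2 libraries can be given. The 95% exact binomial (Clopper-Pearson) interval printed beside a fold change covers counting error only and not the variation between cultures. A member was called higher or lower where it differed by 2-fold or more and the pair's mean reached 20 normalized counts. The libraries held 16403254 to 38551551 counts. The summed normalized count of 8 adipocyte markers was 303.4 to 443.6 at D0 and 41184 to 72256 at D3 and D7, and that of 10 brown adipocyte markers was 2880 and 4286 at D0 and 136765 and 162623 at D7, with 0 counts of Cidea and Cox8b at D0. Ucp1 alone had 91306 and 99587 normalized counts at D7. The brown markers Zic1 and Dio2 went the other way, from 149.8 and 304.1 at D0 to 2.13 and 26.3 at D7 in untreated cells. In FGF8 cells they fell from 135.7 and 60.2 to 1.63 and 18.7. Of the markers of other cell types, Adgre1 (macrophage) had 0 counts in all libraries, as had Myod1, Myf5, Ckm and Myh3 (muscle) and Ttr and Serpina1a (hepatocyte), and whole lists summed to 140 to 281 (8 macrophage markers), 19.1 to 1245 (8 muscle markers) and 8.94 to 44.1 normalized counts (6 hepatocyte markers). The 8 endothelial markers moved with FGF8, with sums of 1632, 213 and 202 normalized counts in untreated and 73.0, 35.1 and 35.8 in FGF8 cells at D0, D3 and D7, most of it from Kdr (1288 and 7.68 at D0) and Tek (326.1 and 42.2 at D0). The 8 preadipocyte and stromal markers summed to 191539 to 194747 normalized counts in the untreated libraries and to 45372 to 77575 in the FGF8 libraries. Their sum was thus lower after FGF8 on every day, while 1 of them, Thy1, was higher at D0, with 2773 normalized counts in untreated and 4427 in FGF8 cells. Col1a1 held most of the sum at D3 and D7. It rose from 61456 at D0 to 163720 at D7 in untreated cells and from 11674 to 70433 in FGF8 cells. The median of the 8 markers fell over the same days, from 12249 to 2284 in untreated and from 4353 to 873.5 in FGF8 cells. The part of the stromal and endothelial markers in the differences described here was not tested.

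Adipocytes store energy as triglyceride. The fatty acids are made from citrate through ATP-citrate lyase, acetyl-CoA carboxylase and fatty acid synthase, or are taken up from lipoproteins with the help of lipoprotein lipase, and are then joined to a glycerol backbone in a series of acyltransferase steps. Perilipins and CIDE proteins coat the resulting droplet and govern how the lipases reach it, and in brown adipocytes the fatty acids set free both fuel and activate uncoupled respiration.

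The promoters of 5 members are shown because the values below turn on these genes. Mlxipl belongs to the 3 members whose promoter holds a sterol response element. Scd1 and Gpd1 were abundant and past 2-fold after FGF8 at D3, and Lpl and Dgat2 moved in opposite directions at D0. The choice was made after the values had been seen. Each sequence is the 250 bases before the start of the canonical GENCODE M39 transcript, read 5′ to 3′ in the direction of the gene from GRCm39, and capitals mark matches on either strand to the motifs described after the sequences.
Mlxipl, chr5:135135505-135135754, plus strand: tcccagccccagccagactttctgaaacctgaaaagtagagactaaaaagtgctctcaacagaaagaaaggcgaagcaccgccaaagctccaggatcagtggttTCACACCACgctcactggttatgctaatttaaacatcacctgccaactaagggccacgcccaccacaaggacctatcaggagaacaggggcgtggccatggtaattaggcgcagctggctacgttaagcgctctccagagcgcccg
Scd1, chr19:44396341-44396590, minus strand: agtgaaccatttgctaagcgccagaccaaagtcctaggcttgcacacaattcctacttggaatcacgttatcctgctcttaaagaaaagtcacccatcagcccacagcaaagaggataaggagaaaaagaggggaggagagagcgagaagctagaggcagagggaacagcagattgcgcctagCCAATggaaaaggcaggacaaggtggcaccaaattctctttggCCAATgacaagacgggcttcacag
Gpd1, chr15:99615146-99615395, plus strand: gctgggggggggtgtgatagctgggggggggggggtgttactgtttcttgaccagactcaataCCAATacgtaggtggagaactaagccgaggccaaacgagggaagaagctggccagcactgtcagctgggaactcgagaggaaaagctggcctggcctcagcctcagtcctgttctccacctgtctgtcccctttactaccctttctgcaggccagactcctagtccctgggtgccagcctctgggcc
Lpl, chr8:69332893-69333142, plus strand: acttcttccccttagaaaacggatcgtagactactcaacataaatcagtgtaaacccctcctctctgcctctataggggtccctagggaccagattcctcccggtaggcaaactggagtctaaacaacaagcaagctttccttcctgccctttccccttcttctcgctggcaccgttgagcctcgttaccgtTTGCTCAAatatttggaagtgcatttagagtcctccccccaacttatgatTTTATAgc
Dgat2, chr7:98831962-98832211, minus strand: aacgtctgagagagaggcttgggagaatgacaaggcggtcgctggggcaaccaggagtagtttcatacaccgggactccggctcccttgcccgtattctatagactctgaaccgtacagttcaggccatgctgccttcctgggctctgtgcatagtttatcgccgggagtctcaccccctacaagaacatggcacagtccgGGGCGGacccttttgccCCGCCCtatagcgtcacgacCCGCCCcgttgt

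The sterol response element searched was TCACNCCAC, the site class bound by SREBP factors. It was found in 3 of 44 members, Mlxipl among them, and in 1.11% of 21751 promoters of this length, and in Mlxipl it lay 146 to 138 bases before the start. The CCAAT box (CCAAT) was found in 12 members, or 27.3%, against 36.5% of all promoters, and lay 67 to 63 and 24 to 20 bases before the start of Scd1. The GC box (GGGCGG) was found in 13 members, or 29.5%, against 36.3% of all promoters, with 3 matches in Dgat2. The nuclear receptor half-site (AGGTCA) was found in 11 members, or 25%, against 13.1% of all promoters. The E-box (CACGTG) was found in 3 members (Acaca, Gk and Mgll), or 6.82%, against 6.26%, the C/EBP motif (TTGCNNAA) in 2 members (Elovl5 and Lpl), or 4.55%, against 9.34%, and the TATA box (TATAAA) in 1 member (Lpl), or 2.27%, against 11.9%. In the 5 printed promoters no match overlapped another. A match is a string of letters and not a measured binding site.

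The members together took up 0.536% of all counts in the untreated D0 library (95% interval 0.532 to 0.539) and 0.438% in the FGF8 D0 library (0.435 to 0.441). At D3 they held 3.66% of the counts in untreated cells (3.65 to 3.67) and 6.54% after FGF8 (6.53 to 6.55). At D7 they held 6.64% in untreated cells (6.63 to 6.65) and 6.61% after FGF8 (6.61 to 6.62). The FGF8 library of D3 thus came close to the share that both arms had at D7, while the untreated library of D3 did not. In bulk RNA, a larger number of differentiated cells and more RNA per cell cannot be told apart.

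The makeup of that share differed between the FGF8 library of D3 and those of D7. Fatty acid synthesis genes held 1.06% of the counts in the FGF8 D3 library, against 0.593% in untreated D3, 0.804% in untreated D7 and 0.584% in FGF8 D7 cells. Desaturation and elongation genes held 1.38% in the FGF8 D3 library, against 0.641% in untreated D3, 2.48% in untreated D7 and 2.47% in FGF8 D7 cells. Scd1 alone made up 1.99% of the counts in untreated D7 and 1.86% in FGF8 D7 cells. Fasn, Scd1, Scd2, Gpd1, Lpl and Fabp4 were each among the 10 most abundant genes of at least 1 library. Without these 6 members in either library, the others held 1.26% of the counts in untreated and 2.00% in FGF8 cells at D3, a ratio of 1.59 against 1.79 for all members, and 1.89% and 1.92% at D7.

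**Figure D1:**
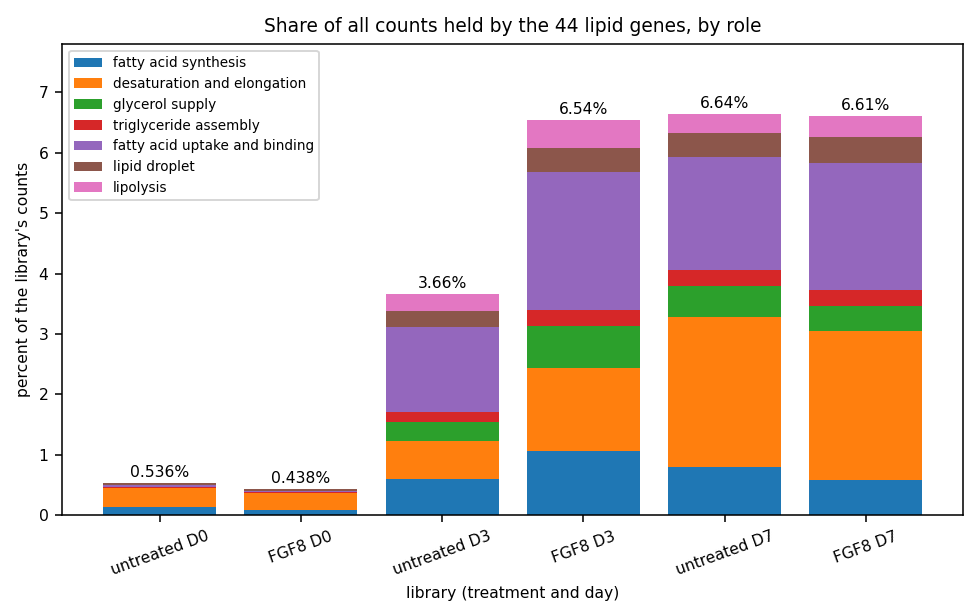
Share of each library's counts (percent, vertical axis) held by the 44 members, stacked by role, for the 6 libraries, with the total printed above each bar. The bars of FGF8 D3 (6.54%), untreated D7 (6.64%) and FGF8 D7 (6.61%) are of nearly equal height, with a larger desaturation and elongation segment at D7.

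Most members rose with differentiation. Changes with time were called by edgeR's quasi-likelihood test on all 6 libraries, with treatment as a term. From D0 to D3, 34 of 42 members tested were called as rising and 0 as falling, against 26.2% and 19.8% of all genes tested. From D0 to D7, 37 of 42 members were called as rising and 0 as falling, against 29.2% and 24.8% of all genes. The members' median log2 fold change was 4.41 from D0 to D3 and 4.79 from D0 to D7, against 0.07 and 0.04 over all genes. Gpihbp1 and Fitm1 were too low to be tested. Gpihbp1, the endothelial anchor of lipoprotein lipase, had at most 0.71 normalized counts in a library, and Fitm1 had at most 4.88.

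The largest rises were in genes that preadipocytes barely transcribed. Gpd1, which makes glycerol 3-phosphate, had 3 counts in untreated and 0 in FGF8 preadipocytes, and reached 71055 normalized counts in untreated and 173366 in FGF8 cells at D3. Cidec, a protein that fuses lipid droplets, had 0 counts in both D0 libraries and reached 20110 and 37194 normalized counts at D3, at least 4564-fold higher in untreated and at least 9684-fold higher in FGF8 cells when D0 is set to a floor of 3 counts. Cd36, a fatty acid translocase, had 2 counts in untreated and 0 in FGF8 preadipocytes and reached 33993 and 54228 normalized counts at D3. These genes were at or near 0 at D0 in both arms, FGF8 preadipocytes included.

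Of the desaturation and elongation genes, only Scd1 was called as rising from D0 to D3 (log2 fold change 3.69 ± 0.62 (SE), adjusted p = 0.0111, edgeR). Scd2 was also called from D0 to D7 (1.87 ± 0.37, adjusted p = 0.0125, edgeR). Without a call at D3, Scd2 went from 36294 normalized counts at D0 to 49113 at D3 in untreated cells, and from 32712 to 90332 in FGF8 cells. The other 4 members, the elongases Elovl5 and Elovl6 and the front-end desaturases Fads1 and Fads2, lay between 0.12 and 0.34 from D0 to D7, and their adjusted p-values in edgeR were 0.129 to 0.747. Fabp3, the heart-type fatty acid binding protein, was the 1 member called from D3 to D7, against 0.0618% of all genes that rose and 0.00686% that fell between these days. It had 42.6 normalized counts in untreated D0, 43.3 in untreated D3 and 8019 in untreated D7 cells, and 21.8, 40.7 and 4731 in the FGF8 libraries of the same days. Its rise of 7.14 ± 0.28 (SE, adjusted p = 0.0241, edgeR) therefore came after D3 in both arms, when Fabp4 and Fabp5 were already high. Of the canonical Fabp3 transcript, 21.7% of the 100-base windows also occur in the pseudogene Fabp3-ps1, so its counts are uncertain, to an extent that is not known here.

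**Figure D2:**
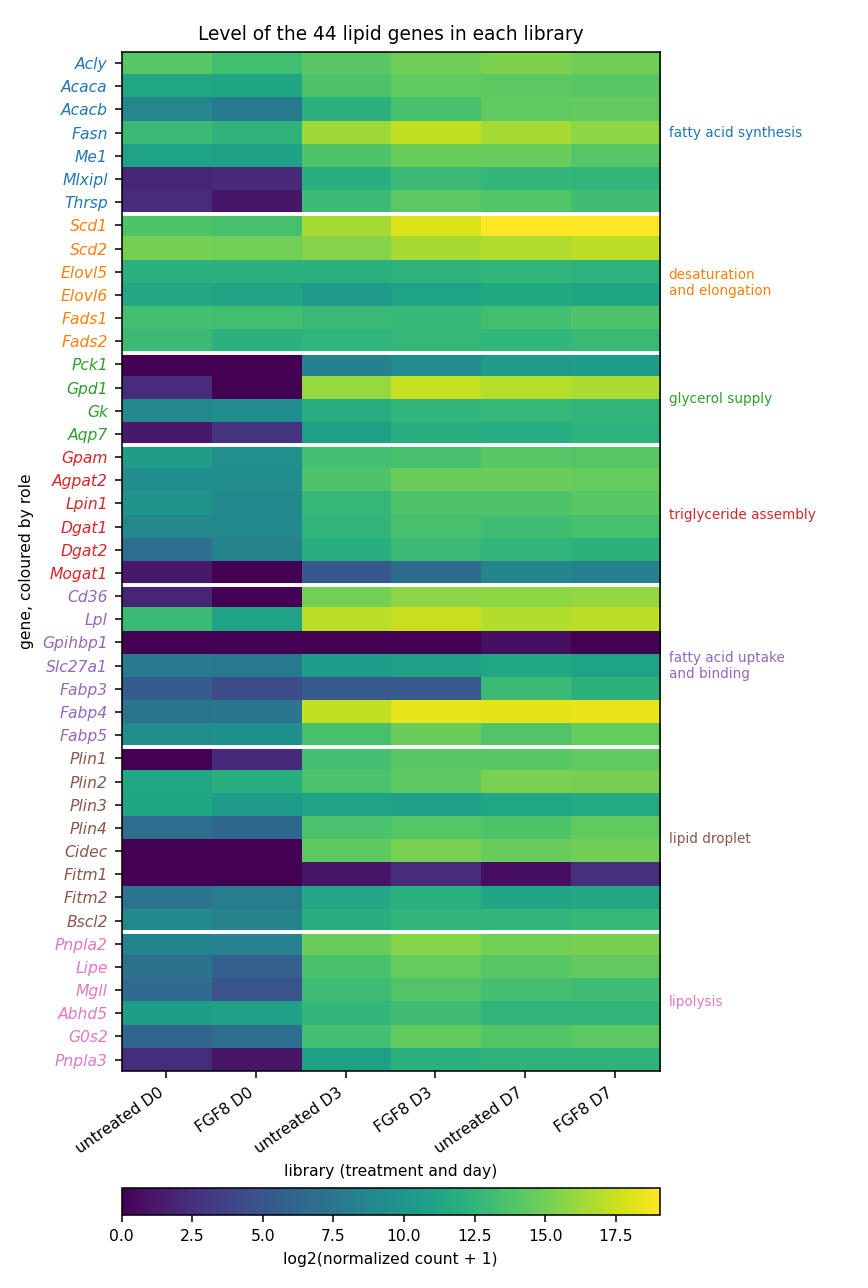
Level of each of the 44 members (rows, grouped and coloured by role) in the 6 libraries (columns), as log2(normalized count + 1) on the colour scale. Gpd1, Cidec, Cd36 and Plin1 are dark at D0 and bright at D3 and D7, Fabp3 brightens only at D7, and Gpihbp1 and Fitm1 stay dark in all libraries.

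Per length, the levels at D7 spread widely. As CPM per kilobase of the canonical transcript, Fabp4, the adipocyte fatty acid binding protein, led with 8319 in untreated and 9263 in FGF8 cells. Scd1 followed with 3954 and 3705, Gpd1 with 1621 and 1280 and Lpl with 1070 and 1201. The lowest of the members that passed the filter was Mogat1, a monoacylglycerol acyltransferase, with 11.9 and 9.59. These 4 leading members kept their order in both D7 libraries.

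FGF8 pretreatment left the members mostly lower at D0, mostly higher at D3 and without a common direction at D7. At D0, 32 of 44 members passed the filter, 23 lay below 0 and 9 above (20 and 12 with total counts), and the median log2 fold change was -0.20 against 0.05 over all genes. At D3, 42 members passed, 39 lay above 0 and 3 below, and the median was 0.80 against 0.08 over all genes. At D7, the same number passed, 22 lay above 0 and 20 below, and the median was 0.06 against 0.08 over all genes, and the members' median was -0.0021 with size factors computed within the pair.

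By the 2-fold rule, 1 member was higher at D0 (3.13% of those that passed, against 7.27% of all genes) and 3 were lower (9.38%, against 10.8%). These shares were below those over all genes. At D3, 13 members were at least 2-fold higher (31%, against 3.8% of all genes) and 0 were lower (against 12.1%). At D7, 0 members were 2-fold higher or lower, against 1.12% and 8.74% of all genes. Scaling by total counts left 8 rather than 13 members 2-fold higher at D3 and shifted the median of all genes by -0.11, and the members' median exceeded that of all genes by 0.72 under either scaling. The 5 members between were Mlxipl, Lpin1, Fabp4, Lipe and G0s2, which lay at log2 fold changes of 1.01 to 1.07, and just below the limit were Fasn at 0.96 and Agpat2 at 0.96. The 39 members above 0 at D3 stayed 39 under each of the 3 other scalings.

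**Figure D3:**
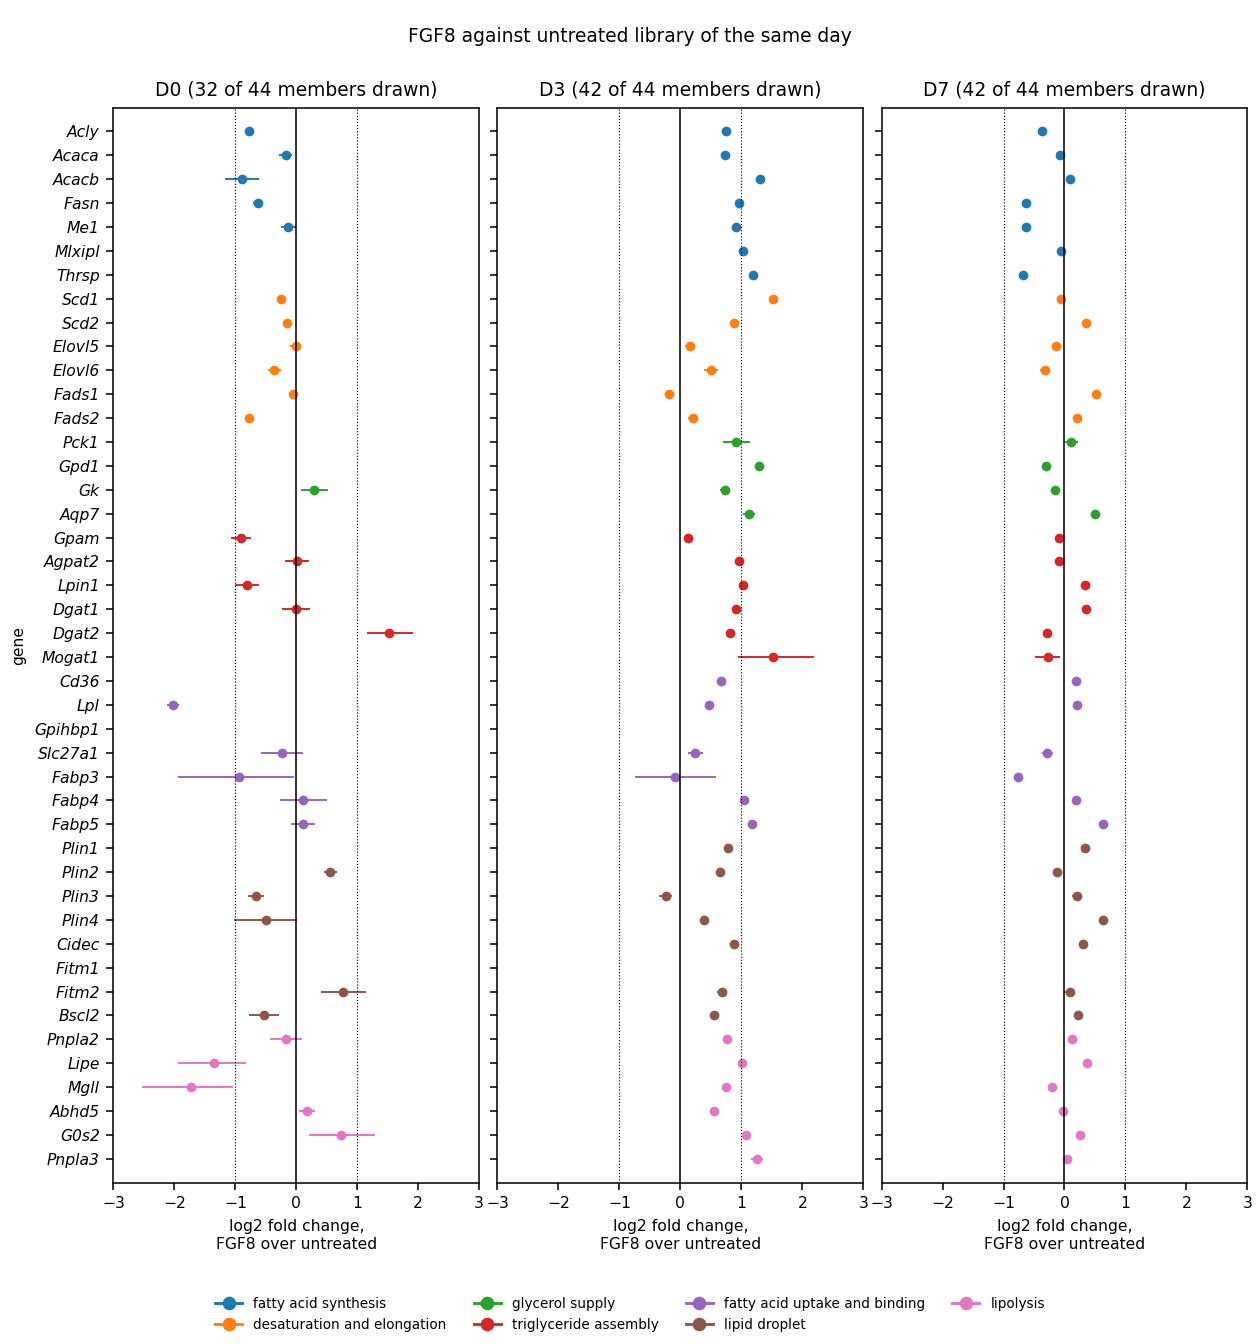
Log2 fold change of FGF8 over untreated cells (horizontal axis) for each member that passed the filter at D0, D3 and D7, coloured by role, with the 95% counting interval as a line and 2-fold marked by dotted lines. Most points lie left of 0 at D0, all but 3 lie right of 0 at D3, and all lie within the dotted lines at D7.

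Other genes that rise with differentiation were also mostly higher after FGF8 at D3. Among the 1642 other genes that were at least 4-fold higher at D7 than at D0 in untreated cells, a list drawn up after the values had been seen and without any D3 or FGF8 library, 1504 passed the filter at D3. Of these, 80.9% were higher after FGF8 and 22.5% at least 2-fold so, with a median of 0.67. Of the members, 34 belong to genes rising by this measure, and 33 of them were higher after FGF8 at D3, with a median of 0.91. The summed adipocyte markers stood at 46041 normalized counts in untreated and 72256 in FGF8 cells at D3, and the brown markers at 8456 and 19044. The stromal markers stood at 191539 and 63030, and the part of either set in the members' difference was not tested.

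**Figure D4:**
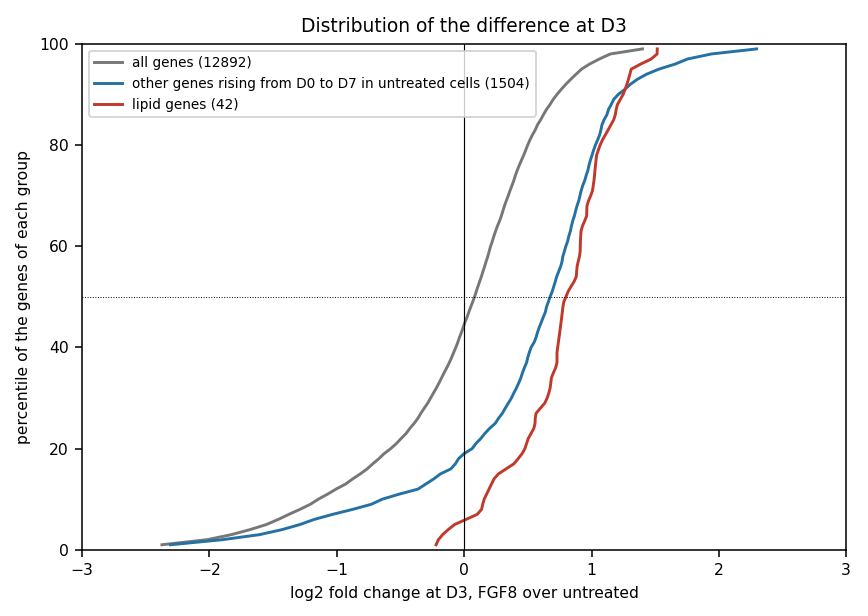
Percentile (vertical axis) against the log2 fold change of FGF8 over untreated cells at D3 (horizontal axis) for all 12892 genes that passed the filter, for the 1504 other genes that rise with differentiation in untreated cells, and for the 42 members. The medians are 0.08, 0.67 and 0.80, and the curve of the members lies to the right of the others up to percentile 91.

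Fatty acid synthesis genes turned between the days. All 5 of its members that passed the filter at D0 were lower after FGF8. At D3 all 7 were higher, against 55.5% of all genes and 80.9% of the other genes that rise with differentiation. At D7 6 of 7 were lower, and the medians were -0.63, 0.96 and -0.37 in turn. Desaturation and elongation genes were also lower at D0 in 6 of 6 cases (median -0.20) and higher at D3 in 5 of 6 (median 0.35). At D7, 3 of these 6 were higher and 3 lower. Acly, the enzyme that makes acetyl-CoA from citrate, had 17482 normalized counts in untreated and 10233 in FGF8 cells at D0, 18508 and 31243 at D3, and 39600 and 30624 at D7. It was thus lower, higher and lower again after FGF8, with log2 fold changes of -0.77, 0.76 and -0.37.

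Acacb, the mitochondrial acetyl-CoA carboxylase, had 443.6 and 239.4 normalized counts at D0, 4577 and 11373 at D3, and 21807 and 23184 at D7. It was 1.31 higher on the log2 scale at D3 (95% interval 1.26 to 1.37) and was higher again at D7 in both arms. Thrsp, the Spot 14 protein that accompanies lipogenesis, had 3 counts in untreated D0 and 1 in FGF8 D0 cells, 8555 and 19640 normalized counts at D3, and 15381 and 9597 at D7. It went from 1.20 at D3 (1.16 to 1.24) to -0.68 at D7 (-0.71 to -0.65), the lowest value of this role at D7.

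Mlxipl, which encodes the carbohydrate response factor ChREBP, had 2 and 3 counts at D0, 3952 and 8067 normalized counts at D3 and 6315 and 6094 at D7. Fasn, the fatty acid synthase, had 8267 and 5347 normalized counts at D0, 84007 and 163954 at D3, and 90653 and 58558 at D7. It was lower after FGF8 at D0 (-0.63), higher at D3 (0.96) and lower at D7 (-0.63), each with a counting interval that excluded 0. Acaca, the cytosolic carboxylase, lay at -0.18, 0.73 and -0.07, but 42.8% of its transcript windows also occur in the copy Gm5182, and Me1, the malic enzyme that supplies NADPH, lay at -0.13, 0.92 and -0.64, with 11.4% of its windows shared with other loci.

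The stearoyl-CoA desaturases, which place the double bond of oleate, followed each other at D3 and parted at D7. Scd1 had 14088 normalized counts in untreated and 11887 in FGF8 cells at D0, 90113 and 257431 at D3, and 543655 and 522023 at D7. Its log2 fold change of 1.51 at D3 (1.5 to 1.53) was among the 2 largest of the members, and at D7 it was -0.06. Scd2, 87.59 kb away on chromosome 19, had 36294 and 32712 normalized counts at D0, 49113 and 90332 at D3, and 109948 and 140546 at D7. It was 0.88 higher at D3 and 0.35 higher at D7. Fads1 went the other way, at -0.19 at D3 and 0.51 at D7, and its neighbour Fads2, 80.96 kb away, lay at 0.20 and 0.21. At D0, Fads2 had 8259 normalized counts in untreated and 4846 in FGF8 cells. The elongases Elovl5 and Elovl6 lay at 0.15 and 0.50 at D3 and at -0.15 and -0.31 at D7.

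Glycerol supply genes were higher after FGF8 at D3 in 4 of 4 cases. So were 55.5% of all genes and 80.9% of the other genes that rise with differentiation, so the direction alone does not set so small a role apart. Gpd1 was 1.29 higher at D3 (1.27 to 1.30) and -0.30 at D7, where it had 126889 normalized counts in untreated and 102739 in FGF8 cells. Aqp7, the aquaglyceroporin that lets glycerol leave the cell, had 1 and 5 counts at D0, 1823 and 3987 normalized counts at D3, and 3502 and 4980 at D7. Unlike Gpd1 it stayed higher after FGF8, at 1.13 (1.05 to 1.21) and 0.51 (0.45 to 0.56). Pck1, the enzyme of glyceroneogenesis, had 0 counts in both D0 libraries, and lay at 0.91 at D3 and 0.11 at D7. Gk, glycerol kinase, lay at 0.73 and -0.16.

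Triglyceride assembly genes were higher at D3 in 6 of 6 cases, against 55.5% of all genes and 80.9% of the other rising genes. Dgat2, an enzyme of the last acylation step, was the 1 member past 2-fold on the higher side at D0 among those that passed the filter, with 124.9 normalized counts in untreated and 359.7 in FGF8 cells (1.52, interval 1.17 to 1.89). It had 4106 and 7243 at D3 and 5901 and 4819 at D7. Its log2 fold change thus went from 1.52 to 0.82 and -0.29.

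Dgat1, which catalyses the same step, had 509.7 and 509.5 normalized counts at D0, 6040 and 11354 at D3, and 9356 and 11944 at D7, with no difference at D0 beyond counting error (interval -0.21 to 0.21). Lpin1, a phosphatidate phosphatase, had 944.5 and 541.5 at D0, 6576 and 13341 at D3, and 14541 and 18449 at D7. It was lower after FGF8 at D0 (-0.80) and higher at D3 (1.02) and D7 (0.34). Agpat2 had 659.5 and 665.7 at D0, 14178 and 27609 at D3, and 25971 and 24339 at D7, and Gpam, the first acyltransferase of the pathway, differed little at D3 (0.13). Mogat1 had 1 and 0 counts at D0, 35.6 and 103.9 normalized counts at D3 (28 and 148 counts), and 403.9 and 333.3 at D7. Its log2 fold change of 1.52 at D3 has a wide interval, 0.95 to 2.18.

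Fatty acid uptake and binding genes held the largest decrease. Lpl had 8251 normalized counts in untreated and 2025 in FGF8 cells at D0, a log2 fold change of -2.03 (-2.11 to -1.95) and the lowest of the members that passed the filter on any day. It had 139484 and 193276 at D3 and 120455 and 138669 at D7, so that it was higher after FGF8 at D3 (0.47) and D7 (0.20). Preadipocytes thus already had Lpl transcript in amount, unlike most members, and FGF8 cells had less of it.

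Fabp4 had 164.5 and 178.0 normalized counts at D0, 162482 and 334151 at D3, and 309617 and 353330 at D7. Fabp5, 187.1 kb away on chromosome 3, had 691.8 and 748.9 at D0, 11449 and 25987 at D3, and 15313 and 23609 at D7. Both were higher after FGF8 at D3, at 1.04 and 1.18, and at D7 the difference was 0.19 for Fabp4 and 0.62 for Fabp5. Fabp3 lay at -0.76 at D7 (-0.81 to -0.72), the lowest of the members that passed the filter on that day. Cd36 lay at 0.67 at D3 and 0.19 at D7, and Slc27a1, a fatty acid transport protein, at 0.25 and -0.28.

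Lipid droplet genes had 0 members past 2-fold on any day, among 5 that passed the filter at D0 and 7 at D3 and D7. Over all genes, 7.27% were 2-fold higher and 10.8% lower at D0, 3.8% and 12.1% at D3, and 1.12% and 8.74% at D7. With so few members, a count of 0 does not set this role apart. Of 10 other droplet and lipase genes that passed at D3, 2 were at least 2-fold higher and 0 lower. Plin2, the perilipin of most cells that store lipid, had 2654 and 3910 normalized counts at D0, 12858 and 20068 at D3, and 38538 and 35495 at D7. It was higher after FGF8 already at D0 (0.56, interval 0.47 to 0.64), as was Fitm2 (0.77), which buds droplets from the endoplasmic reticulum. Plin3 and Bscl2 were lower at D0 (-0.66 and -0.54). Cidec had 24731 normalized counts in untreated and 30484 in FGF8 cells at D7, after the values for D0 and D3 given above. At D3, Cidec lay at 0.89 and Plin1, the perilipin of adipocytes, at 0.78, and Plin3 at -0.24 was the lowest of the members that passed the filter. At D7, 6 of 7 members were higher after FGF8, against 59.2% of all genes and 66.0% of the other rising genes. Plin4 led at 0.64 and was also the highest of the members that passed the filter on that day.

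Lipolysis genes were higher at D3 in 6 of 6 cases, after values on both sides of 0 at D0. At D3, 55.5% of all genes and 80.9% of the other rising genes were higher. Lipe, the hormone-sensitive lipase, had 142.5 normalized counts in untreated and 55.0 in FGF8 cells at D0, 12235 and 24576 at D3, and 17992 and 23308 at D7. It turned from -1.36 at D0 (-1.93 to -0.84) to 1.01 at D3 (0.97 to 1.04). Mgll, the monoacylglycerol lipase, had 99.9 and 29.4 at D0, 9204 and 15397 at D3, and 10380 and 9028 at D7, with log2 fold changes of -1.73, 0.74 and -0.20. Both lipases thus had less transcript in FGF8 preadipocytes, from counts of 23 to 97 per library.

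Pnpla2, the adipose triglyceride lipase that cuts the first fatty acid, had 390.7 and 348.2 normalized counts at D0, 28214 and 48036 at D3, and 32560 and 35476 at D7. Its inhibitor G0s2 had 72.0 and 120.3 at D0, 10709 and 22550 at D3, and 16142 and 19163 at D7. The enzyme and its inhibitor were both higher at D3, by 0.77 and 1.07, and the coactivator Abhd5 by 0.56. Pnpla3 had 3 and 1 counts at D0, 1933 and 4610 normalized counts at D3, and 5267 and 5425 at D7, a log2 fold change of 1.25 at D3 and of 0.04 at D7.

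Between D3 and D7 the arms moved differently. Of 42 members that passed the filter in both arms, 39 were higher at D7 than at D3 in untreated and 22 in FGF8 cells. The median changes were 0.71 and 0.08. Over all genes in untreated cells, 46.7% were higher at D7, with a median of -0.04. In the edgeR fit over both arms, the median change was 0.35 for the members and -0.04 over all genes. By the 2-fold rule, 11 members were higher at D7 in untreated cells (against 8.77% of all genes) and 0 were lower (against 4.42%), while 6 were higher in FGF8 cells (against 8.16%) and 2 were lower (against 5.4%). The 2 lower members, a share near that over all genes, were Fasn, at -1.49 in FGF8 and 0.11 in untreated cells, and Thrsp, at -1.03 and 0.85. In 38 of 42 members the change, taken with its sign, was higher in untreated than in FGF8 cells. This count does not compare the sizes of the changes. It is not separate from the FGF8 differences at D3 and D7 given above, since the same libraries enter both. A test of the difference between the arms would need replicates, so it was not tested.

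In 17 members the value went up in untreated and down in FGF8 cells, and 0 members showed the reverse. These counts, too, rest on the libraries that gave the FGF8 differences at D3 and D7. For 15 of the 17 both counting intervals excluded 0. Besides Fasn and Thrsp they included Gpd1 (0.84 in untreated and -0.75 in FGF8 cells), Me1 (0.91 and -0.65) and Dgat2 (0.52 and -0.59). Scd1, at 2.59 and 1.02, was past 2-fold in both arms. The highest of the 6 libraries was FGF8 D3 for 17 members, FGF8 D7 for 14, untreated D7 for 10 and untreated D0 for 1 (Fads2). In 23 of the 42 members the level in FGF8 cells at D3 was at or above that in untreated cells at D7, among them 5 of the 7 fatty acid synthesis genes. Of the 39 members higher after FGF8 at D3, 36 were closer to 0 at D7, a comparison in which the same libraries enter as in the changes from D3 to D7. Counts that compare the arms member by member were made for the members only, without a share over all genes. Of the members, 92.9% were higher after FGF8 at D3 and 52.4% at D7. Among the other genes rising with differentiation these shares were 80.9% (median 0.67) and 66.0% (median 0.21), and among all genes 55.5% and 59.2%.

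**Figure D5:**
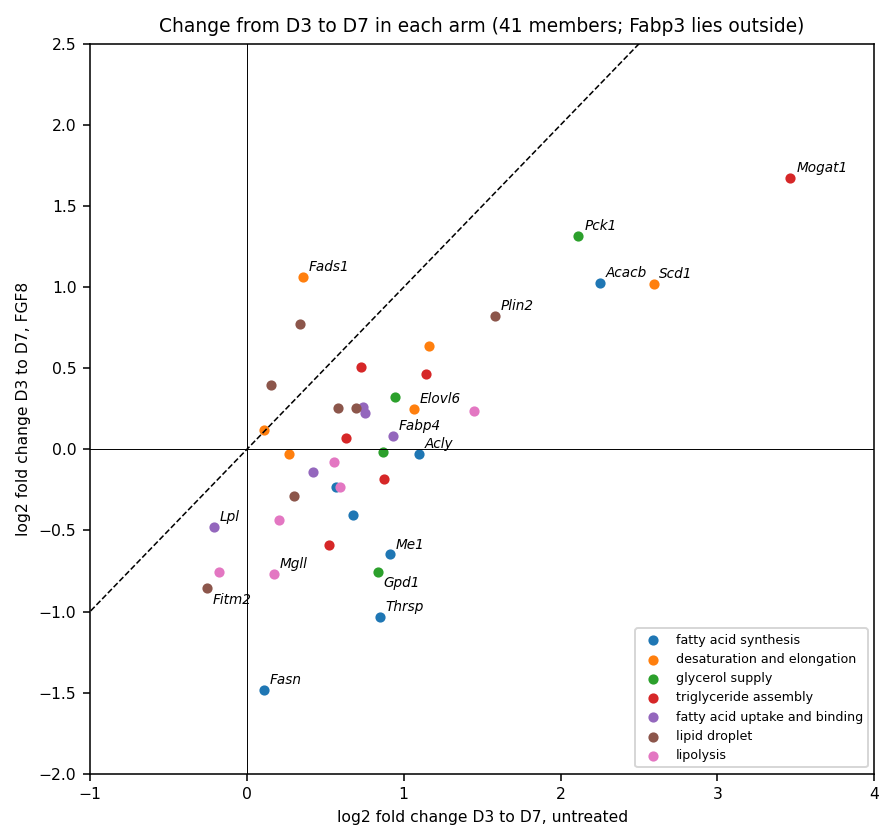
Log2 fold change from D3 to D7 in untreated cells (horizontal axis) and in FGF8 cells (vertical axis) for 41 members, coloured by role, with equal change as the dashed line. Most points lie below the line, and 17 lie in the field at the lower right, with Fasn (0.11 and -1.49) and Thrsp (0.85 and -1.03) lowest, while Fabp3 at 7.50 and 6.83 lies outside the axes.

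No member was called for an effect of FGF8 common to the 3 days. With day as a term in edgeR's quasi-likelihood fit, 0 of 42 members were called higher and 0 lower at an adjusted p under 0.05, against 0.0206% and 1.25% of all genes. At an unadjusted p under 0.05, 3 were higher (Aqp7, G0s2 and Fitm2) and 1 was lower (Fabp3). Over all genes, 3389 of 14569 passed this limit in either direction, a larger share than among the members. The smallest adjusted p was that of Aqp7, at a log2 fold change of 0.85 ± 0.21 (SE, adjusted p = 0.126, edgeR). DESeq2 called Aqp7 alone among the members, at an adjusted p of 0.0348, and called 475 of 13682 genes higher. Fabp3 was the next on the lower side, at -0.62 ± 0.20 (adjusted p = 0.168, edgeR), and lay below 0 on 3 of 3 days, at -0.94, -0.09 and -0.76. Its value at D3, from 34 counts in untreated and 58 in FGF8 cells, lay within counting error, and that at D0 came from 29 and 17 counts. Without D0, edgeR called Aqp7 (0.79, adjusted p = 0.0231) and Fabp5 (0.88, adjusted p = 0.0443) as higher. That fit called 569 of 14367 genes higher and 1661 lower, so 2 of 42 members is near the share over all genes. The fit takes a response that differs between days as error, and the members' values turned sign between days as described above.

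Of 74 other genes of lipid metabolism, 33 of 61 that passed the filter were higher after FGF8 at D0, with a median of 0.07, where the members' median was -0.20. At D3, 51 of 64 were higher, with a median of 0.48, and at D7 41 of 68, with a median of 0.09. In edgeR 0 of 71 tested were called for FGF8, while 38 were called as rising and 11 as falling from D0 to D3. Among the regulators, Srebf1, the factor that drives fatty acid synthesis genes, had 2597 normalized counts in untreated and 2756 in FGF8 cells at D0, 14976 and 26319 at D3, and 15300 and 18681 at D7. Its log2 fold change was 0.09, 0.81 and 0.29. Srebf2, the paralog that drives cholesterol synthesis, lay at -0.05, -0.47 and -0.20. Insig1 lay at 0.33, 0.90 and 0.23, Nr1h3 (the liver X receptor alpha) at 0.69, 0.64 and 0.35, and Mlx, the partner of ChREBP, at 0.36, 0.48 and 0.12.

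The adipogenic factors Pparg and Cebpa were lower after FGF8 at D0 (-0.59 and -0.54) and higher at D3 (0.69 and 0.48) and D7 (0.35 and 0.22). The 3 largest increases among the other lipid genes at D3 were Cidea at 3.61, Scd3 at 1.70 and Plin5 at 1.23, and at D7 Scd3 at 1.57, Hacd1 at 0.87 and Cidea at 0.69. The 3 largest decreases at D3 were Lpin3 at -1.92, Slc27a6 at -1.79 and Cebpd at -1.54, and at D7 Ces1f at -1.98, Slc27a6 at -1.91 and Cebpd at -1.87. Cidea, a droplet protein of brown adipocytes, thus differed more at D3 than any of the 44 members, from 33.1 to 415.5 normalized counts.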

How the data were processed

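Bulk RNA sequencing of 6 libraries, 1 per condition, was used. The authors made stranded mRNA libraries, trimmed reads with Trim Galore, mapped them with HISAT2 against GRCm39 and summed them by gene symbol with featureCounts, and deposited raw counts. Tool versions, annotation, strandedness of the counting and the handling of multiply matching reads are not given in the sources used here, so counts of genes with near-identical copies or with an overlapping gene on the opposite strand are uncertain. Groups were taken from the sample titles, and nothing states that the libraries stem from separate cultures.

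Size factors were median-of-ratios (DESeq2 1.42.0). Fold changes used a pseudocount of 1 and a filter at a pair mean of 20 normalized counts, and intervals and the floor of 3 counts cover counting error only. Effects shared by days or by arms came from edgeR 4.0.16 (quasi-likelihood F-test, TMM, filterByExpr, day and treatment as terms, 2 residual degrees of freedom, Benjamini-Hochberg adjustment over all genes tested, threshold 0.05). The steps were tested on simulated data. Transcripts and promoters came from GENCODE M39, in which 23897 of the 26264 symbols were found. Scripts ran in R 4.3.3 and in Python 3.11.15 with pandas 2.3.3 and scipy 1.17.1.

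The members and gene lists were chosen with earlier results of these data known. Values in every library are given for members called for FGF8, members past 2-fold after FGF8 on any day, and the 2 members of each role with the highest level per length at D7, and Fasn and Fabp3 were added after their values had been seen. Of the other lipid genes, 7 regulators and the 3 largest changes in each direction at D3 and D7 are named. The alternatives were other scalings, pseudocounts, filters and fold limits, DESeq2's Wald test, fits without a block and fits without 1 day. A further promoter sequence is not reported here.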

Additional observations from a re-analysis of the deposited data

Results flagged for a closer look

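Lipe, the hormone-sensitive lipase, was the 1 member at least 2-fold different after FGF8 in opposite directions on different days. Its log2 fold change was -1.36 at D0, from 142.5 normalized counts in the untreated to 55.0 in the FGF8 library, and 1.01 at D3, from 12235 to 24576. With 1 library per condition the difference between the days was not tested. The value at D3 lies at the limit of 2-fold and was 0.97 with TMM, 0.90 with total counts and 0.97 with size factors within the pair.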

How the results depend on the processing

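At D3, 8 members were 2-fold higher with total counts, 30 at 1.5-fold and 0 at 4-fold, and the median was 0.69 with total counts and 0.76 with size factors within the pair. At D7, the median was 0.095 with TMM, 0.028 with total counts and -0.0021 with size factors within the pair, where it reversed. At D7, 1 member was 2-fold higher without a filter, and 2 were higher and 4 lower at 1.5-fold. At D0, 3 members were higher without a filter, 3 at 1.5-fold and 0 at 4-fold, while 1 was lower at a mean of at least 100, 8 without a filter, 11 at 1.5-fold and 1 at 4-fold. The members added without a filter had few counts. For the effect of FGF8 shared by the days, members called higher numbered 1 with DESeq2's Wald test, against 475 of 13682 genes. They numbered 0 to 2 when 1 day was left out, 2 of them without D0, against 569 of 14367 genes. Members called lower numbered 0 throughout. From D3 to D7, DESeq2 called 5 members rather than 1, with Pck1, Plin2, Mogat1 and Acacb besides Fabp3. Over all genes, DESeq2 called 861 of 14066 higher between these days.

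Without the 10 most abundant genes of each library, the members' share of counts was 0.564%, 2.20% and 2.84% in untreated and 0.460%, 2.13% and 2.70% in FGF8 cells at D0, D3 and D7. This setting takes 3 members out of the untreated and 6 out of the FGF8 library of D3, so its values do not compare the arms. Without the same 6 members in every library, a setting chosen after the data had been seen, the share was 0.257%, 1.26% and 1.89% in untreated and 0.213%, 2.00% and 1.92% in FGF8 cells. The other 92 values that answer a comparison stayed within the limits. Of the alternatives for single members, 73 left the call as it was, and 12, on 5 members at D3, brought it below 2-fold, at 0.90 to 1.00, without a change of direction. The counts of members from D3 to D7 in each arm, recomputed with TMM and total counts after the data had been seen, were 37 to 39 in untreated and 22 in FGF8 cells. Low counts of the members limit the comparison at D0 most, where 12 members did not pass the filter and several had 0 to 3 counts. Without replicates no difference between 2 libraries can be set against the spread between cultures.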
